A study of Mus musculus with 10 samples.

Results

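The transcripts described here are those of glycolysis and of the hypoxia response, measured in subcutaneous mouse tumors after an injection of CpG1826 or PBS into the tumor. The list held 39 genes: 15 glycolytic enzymes, 3 glucose transporters, 2 lactate transporters, 3 regulators of glycolytic flux, 3 components of the HIF system and 13 genes known as HIF targets. A gene was measured where a probe of the array carried its symbol and no other, and of several such probes the one that was brightest on average across the 10 arrays was taken. By this rule 37 of the 39 genes were measured, among 19938 genes in all, with 13 enzymes and 24 other members. Gpi1 and Eno1, without such a probe, were not analysed here. Of the 37 genes, 35 lay above the median level of all genes on these arrays, and Car9 and Eno2 lay below it.

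All mice were C57BL/6, and their tumors had grown under the skin from MC38 cells, an established line from a mouse colon carcinoma. Of the tumors, 5 received CpG1826 when they had reached 40 mm2 or so, at 50 µg in a volume of 50 µL, and 5 received the vehicle, PBS. CpG1826 is a short synthetic DNA whose unmethylated CpG motifs stimulate TLR9, a sensor of DNA in endosomes. The labels give 6 h from CpG1826 injection to dissection, and PBS tumors were assumed to match in size, volume and time. Each array was 1 tumor of 1 mouse, by the mouse number in its labels: PBS mice 26, 29, 482, 592 and 661 and CpG1826 mice 50, 58, 183, 189 and 595, and per-tumor values below follow this order. The number of mice limits the precision of each value. The p-values set the difference between the groups against the spread between tumors within them, and cover these 10 tumors only.

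The arrays read whole tumors, which held host cells beside the injected line. All 7 fibroblast markers and all 10 markers of macrophages and monocytes lay above the median level of all genes. Of 7 epithelial markers, Epcam, Krt18, Krt19, Cdx2 and Vil1 lay below it, and Krt8 and Cdh1 lay just above it. The median log2 value of an array was 6.47 to 6.53. Over all genes, 710 were higher in CpG1826 tumors (3.56% of 19938) and 220 lower (1.1%) in a limma fit with a Benjamini-Hochberg adjusted p under 0.05. These shares are the background for the counts of members below. Keratinocyte markers moved with the groups: 12 of 17 were higher, and their mean log2 level ran from 5.31 to 5.86 in PBS and from 6.71 to 7.38 in CpG1826 tumors. Neutrophil markers did so in part, with 6 of 10 higher and mean levels from 5.13 to 5.32 and from 5.74 to 6.23. Ly6g, Camp, Ngp and Ltf did not pass, with log2 fold changes from -0.07 to 0.05. Of the epithelial markers Epcam and Cdh1 were higher, of those of macrophages and monocytes Fcgr1 was higher and Csf1r and Ccr2 lower, and of 7 endothelial markers Tek was lower. None of the fibroblast, skeletal muscle, adipocyte, T cell, B cell or erythroid markers was called. The part of these cell types in the results below was not tested. In a whole tumor, a change in the share of a cell type and a change of RNA per cell cannot be told apart.

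Glycolysis splits glucose into pyruvate and yields ATP without oxygen. Glucose enters through SLC2A transporters, hexokinase traps it, phosphofructokinase commits it to the pathway, and lactate made from pyruvate leaves through SLC16A transporters. The heterodimer of HIF1α and ARNT binds a short core motif in promoters and enhancers, and many glycolytic genes belong to its known targets. Prolyl hydroxylases of the EGLN family mark HIF1α for degradation when oxygen is present, so the protein, more than its mRNA, is what low oxygen raises. In macrophages and dendritic cells, Toll-like receptor signalling is known to raise glycolysis and Hif1a transcription in normal oxygen as well.

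The core motif bound by HIF was looked for in the promoters of the members, because many of them are known HIF targets. The letters searched were ACGTG and GCGTG, on both strands, so that CACGT and CACGC count as matches as well. The palindrome CACGTG matches on both strands and is also an E-box, the motif of MYC and of the circadian factors. A window was the 300 bases from 250 before to 50 after a RefSeq start site (GRCm38.p6), and 34 of the 37 members had at least 1 window, the others being Ndrg1, Slc2a3 and Bnip3l. The 250 bases before the start are shown 5′ to 3′ on the strand of the gene, with matches in capitals, for 4 genes that rose after CpG1826 and for Ldha, an enzyme that did not pass the test. Pfkfb3 has 2 annotated starts with a window, at chr2:11553930-11554179 and chr2:11502091-11502340, both on the minus strand. The others lie at chr4:119108495-119108744 (Slc2a1, plus strand), chr7:138909507-138909756 (Bnip3, minus), chr6:82774455-82774704 (Hk2, minus) and chr7:46845554-46845803 (Ldha, plus).
Pfkfb3, start in the first window: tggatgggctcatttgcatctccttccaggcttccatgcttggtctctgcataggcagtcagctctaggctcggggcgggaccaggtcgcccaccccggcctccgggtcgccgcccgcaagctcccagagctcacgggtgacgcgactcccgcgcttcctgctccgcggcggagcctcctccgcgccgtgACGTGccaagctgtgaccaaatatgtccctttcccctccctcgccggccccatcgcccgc
Pfkfb3, start in the second window: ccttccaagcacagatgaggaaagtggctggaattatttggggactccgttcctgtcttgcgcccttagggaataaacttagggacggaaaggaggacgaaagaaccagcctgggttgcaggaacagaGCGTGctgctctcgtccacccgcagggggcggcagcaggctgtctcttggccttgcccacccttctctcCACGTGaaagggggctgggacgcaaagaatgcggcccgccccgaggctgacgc
Slc2a1: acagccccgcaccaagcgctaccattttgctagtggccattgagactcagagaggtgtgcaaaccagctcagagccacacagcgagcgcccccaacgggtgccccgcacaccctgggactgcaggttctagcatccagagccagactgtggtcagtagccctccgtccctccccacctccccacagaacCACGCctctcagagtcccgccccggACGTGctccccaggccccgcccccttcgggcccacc
Bnip3: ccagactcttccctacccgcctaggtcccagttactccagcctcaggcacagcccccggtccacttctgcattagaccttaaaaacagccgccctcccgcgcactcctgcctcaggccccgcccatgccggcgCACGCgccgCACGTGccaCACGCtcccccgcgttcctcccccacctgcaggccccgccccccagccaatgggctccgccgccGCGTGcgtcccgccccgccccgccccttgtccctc
Hk2: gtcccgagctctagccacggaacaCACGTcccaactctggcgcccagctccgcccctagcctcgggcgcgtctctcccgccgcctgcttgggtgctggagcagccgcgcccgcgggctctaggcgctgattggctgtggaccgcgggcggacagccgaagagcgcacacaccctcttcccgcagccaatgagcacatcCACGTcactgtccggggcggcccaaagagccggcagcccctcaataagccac
Ldha: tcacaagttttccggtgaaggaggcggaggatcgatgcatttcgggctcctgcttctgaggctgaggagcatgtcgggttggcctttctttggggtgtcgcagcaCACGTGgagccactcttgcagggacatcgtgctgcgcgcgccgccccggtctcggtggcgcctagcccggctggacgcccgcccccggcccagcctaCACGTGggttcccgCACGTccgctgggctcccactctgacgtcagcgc

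The motif was present in most members, called or not. It was in a window of 10 of the 11 members with a window that were higher (90.9%) and of 21 of the 22 that did not pass the test in either direction (95.5%). Eno2, which was higher and is not shown, held 0 matches before its start. The stretch shown for Ldha held 5 matches counted over both strands, as many as that of Bnip3, and a second window of Ldha, not shown, held 1 before its start. In all, 32 of 34 members (94.1%) held a match, against 55.3% of the 15614 measured genes with a window and 46.7% of all 27025 genes with one. Counted by windows, the share was 79.6% for the members, 51.7% for the measured genes and 43.8% over all windows of this length. The windows of the members had 62.0% G and C, against 57.2% for the measured genes and 53.8% over all genes with a window. The part of this base composition in the share of matches was not tested. The NF-κB consensus, searched on both strands as well, was in a window of 3 of 34 members (8.82%) and of 7.61% of the measured genes. A match is a string of letters and no measured binding.

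CpG1826 tumors had more mRNA for the glycolytic activator Pfkfb3, for the glucose transporters Slc2a1 and Slc2a6, for Hk2 and for Hif1a, and for a set of known HIF targets led by Ndrg1, Adm and Bnip3. Most enzymes of the glycolytic chain itself did not pass the test (9 of 13), and neither did most of the other members (15 of 24). Of the 37 members, 12 were higher (32.4%, against 3.56% of all genes) and 1, Pfkm, was lower (2.7%, against 1.1%). At an unadjusted p under 0.05 in the limma fit, 19 members were higher and 1 lower, where 1620 of all genes were higher (8.13%) and 1481 lower (7.43%). Genes above the median level were called higher more often, 580 of 9969 (5.82%), and among the 35 members above that level the count was 11 (31.4%). The 5 CpG1826 values lay above the 5 PBS values for 13 members (35.1%, against 4.35% of all genes) and below them for Pfkm only (2.42% of all genes). The 13th was Kdm3a. The median log2 fold change of the members was 0.20, and that of all genes -0.02. The members were chosen with earlier results of these data known. An excess over all genes can stem from that choice, and it was not tested.

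Of the 12 higher calls, 9 were kept when any 1 mouse was left out, and the calls of Pfkp, Eno2 and Vegfa, like that of Pfkm, were lost in some of these fits. The mice concerned are given with each gene.

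**Figure D1:**
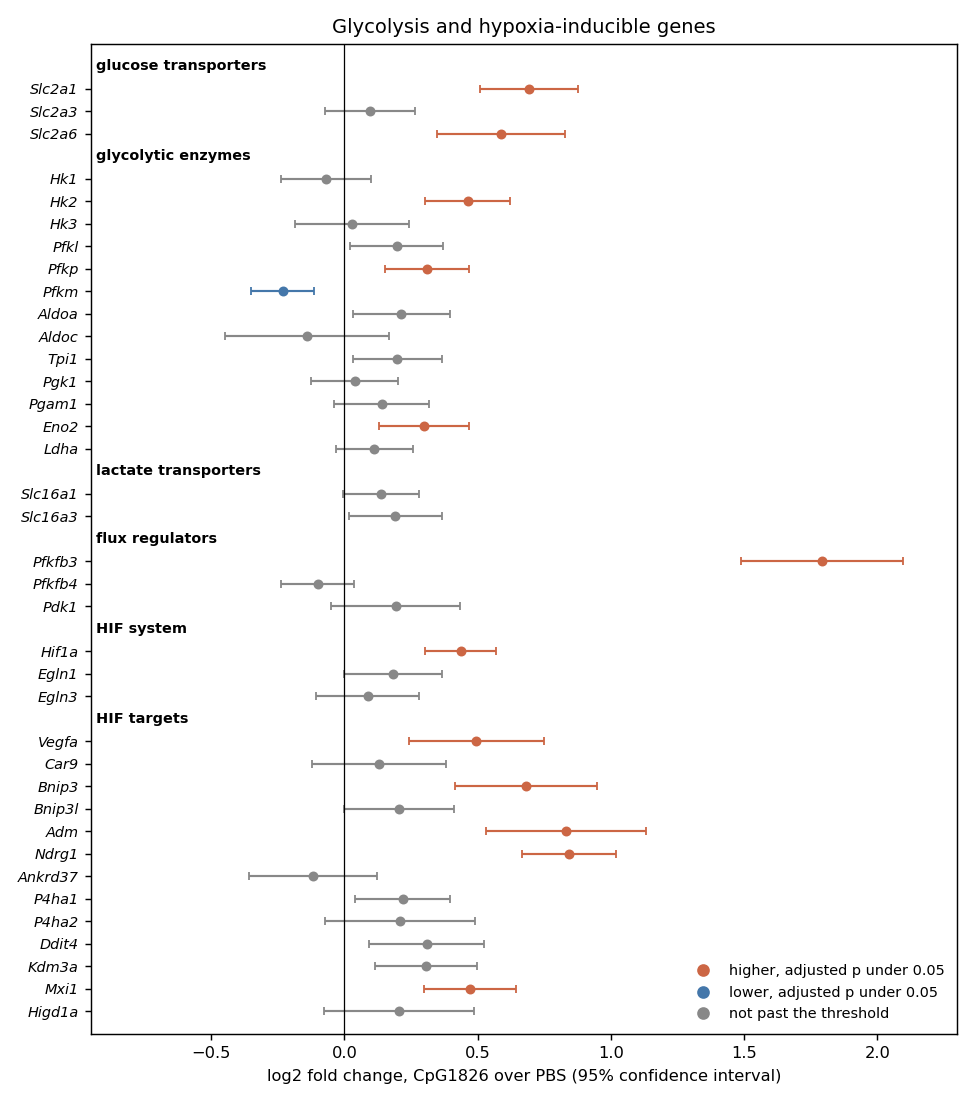
Log2 fold change of each of the 37 measured members, CpG1826 over PBS (x axis), with its 95% confidence interval from limma, grouped by role (5 tumors a group). Points in red are the 12 members called higher, the point in blue is Pfkm, and grey points did not pass. Pfkfb3, at 1.79, stands beyond all the others, and most enzymes lie between 0 and 0.3.

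Among the glucose transporters, 2 of 3 were higher. Slc2a1 encodes GLUT1, the widely expressed transporter that sets basal uptake. Its log2 values were 11.05, 11.04, 11.03, 10.93 and 10.93 in PBS and 11.99, 11.63, 11.57, 11.72 and 11.53 in CpG1826 tumors. The PBS tumors lay close together, every CpG1826 tumor lay above them, and mouse 50 was the highest. The log2 fold change was 0.69 ± 0.09 (SE, n = 5 per group), or 1.62-fold (95% confidence interval 1.42 to 1.84, limma adjusted p = 0.000257). Slc2a6, which encodes GLUT6, a transporter of lysosomal membranes induced in inflammatory macrophages, read 7.24, 7.68, 7.63, 7.42 and 7.71 in PBS and 8.08, 7.96, 8.41, 8.23 and 7.95 in CpG1826 tumors. The groups did not overlap, and here mouse 183 was the highest. The change was 1.5-fold (1.27 to 1.77, limma adjusted p = 0.00694). Slc2a3, which encodes the high-affinity neuronal and leukocyte transporter GLUT3, had overlapping groups and a log2 fold change of 0.10 (95% confidence interval -0.07 to 0.26, limma adjusted p = 0.628).

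The first steps of the chain differed between isoenzymes. Hk2, the inducible hexokinase that binds mitochondria, read 10.04, 9.90, 10.02, 9.88 and 9.74 in PBS and 10.51, 10.33, 10.41, 10.31 and 10.34 in CpG1826 tumors. No PBS tumor reached the lowest CpG1826 tumor. It was 1.38-fold higher (1.23 to 1.54, limma adjusted p = 0.00198). Hk3, the hexokinase of myeloid cells, had a log2 fold change of 0.03 (-0.18 to 0.24), and its tumors ran from 8.10 to 8.60 in PBS and from 8.22 to 8.59 in CpG1826. Hk1, the constitutive form, had a log2 fold change of -0.07 (-0.24 to 0.10) on the probe chosen by its level. Its other single-symbol probe gave 0.23 (limma over all probes, adjusted p = 0.0700), so the 2 probes differed in sign, and neither passed. The chosen probe had a mean level of 12.61 and the other one of 9.57. Whether the chosen probe also reads a near-identical copy of Hk1 was not tested. A further 16 probes carry the Hk1 symbol together with others and were not used.

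Phosphofructokinase, which makes fructose 1,6-bisphosphate, has 3 subunit genes, of which Pfkp was higher, Pfkm was lower and Pfkl did not pass. Pfkp, the platelet-type subunit, read 9.51, 9.63, 9.69, 9.66 and 9.45 in PBS and 9.94, 9.87, 9.73, 10.01 and 9.93 in CpG1826 tumors. The groups were separate, though mouse 183 lay close to the highest PBS tumor. Pfkp was 1.24-fold higher (1.11 to 1.38, limma adjusted p = 0.0273). Pfkm, the muscle-type subunit, was the only lower member, at 9.49, 9.47, 9.41, 9.37 and 9.45 in PBS and 9.24, 9.20, 9.20, 9.18 and 9.22 in CpG1826 tumors. Its difference was small, 1.17-fold lower (1.08 to 1.28, limma adjusted p = 0.0286), but the spread within each group was smaller still, with SDs of 0.04 and 0.02. Pfkl, the liver-type subunit, had a log2 fold change of 0.20 (0.02 to 0.37, limma adjusted p = 0.248) and overlapping groups. Both calls were near the threshold. Pfkp no longer passed when PBS mouse 26, 29 or 661 or CpG1826 mouse 50, 58, 189 or 595 was left out (adjusted p up to 0.0725), nor did Pfkm when PBS mouse 29, 482 or 661 or CpG1826 mouse 58, 183, 189 or 595 was (up to 0.0830). Skeletal muscle markers, 0 of 15 of which passed, had log2 fold changes from -0.53 to -0.00, and their part in the Pfkm value was not tested.

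The lower part of the chain held 1 call among 7 genes, that of Eno2. Eno2, the neuronal enolase, read 6.06, 6.06, 6.13, 5.93 and 5.92 in PBS and 6.37, 6.31, 6.51, 6.14 and 6.27 in CpG1826 tumors. PBS mouse 482 at 6.13 and CpG1826 mouse 189 at 6.14 lay next to each other. The change was 1.23-fold (1.09 to 1.38, limma adjusted p = 0.0459), and the call was lost when any mouse but CpG1826 mouse 189 was left out (adjusted p up to 0.118). Aldoa, the main aldolase, and Tpi1, triosephosphate isomerase, had log2 fold changes of 0.21 (0.03 to 0.39) and 0.20 (0.03 to 0.37) with limma adjusted p = 0.226 and 0.219. Ldha, which turns pyruvate into lactate, had 0.11 (-0.03 to 0.26), Pgam1, phosphoglycerate mutase, 0.14 (-0.04 to 0.32), and Pgk1, phosphoglycerate kinase, 0.04 (-0.13 to 0.20). Aldoc, the brain-type aldolase, had -0.14 (-0.45 to 0.17) and the widest interval of the enzymes. For Ldha, PBS tumors ran from 12.28 to 12.51 and CpG1826 tumors from 12.45 to 12.64, so the groups overlapped. Many of these enzymes have near-identical processed copies in the mouse genome, and the array's probes may not tell them from the gene. Of the 3 single-symbol probes of Pgk1, 2 held identical values, as did 2 of the 3 of Pgam1. The probes gave log2 fold changes of 0.04 for Pgk1 and from 0.09 to 0.14 for Pgam1.

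The flux regulators held the largest difference of all members. PFKFB3 makes fructose 2,6-bisphosphate, the strongest known activator of phosphofructokinase, and its gene responds to both hypoxia and inflammatory signals. Pfkfb3 read 8.53, 8.79, 8.93, 8.73 and 8.36 in PBS and 10.47, 10.30, 10.97, 10.27 and 10.29 in CpG1826 tumors. The gap between the groups was wider than the range within either one, and mouse 183 stood above the other CpG1826 tumors. The log2 fold change was 1.79 ± 0.14 (SE, n = 5 per group), or 3.46-fold (2.81 to 4.27, limma adjusted p = 6.79e-06). Leaving out any 1 mouse left it between 1.66 and 1.86. Its sister gene Pfkfb4, also known as a HIF target, had a log2 fold change of -0.10 (-0.24 to 0.04), and Pdk1, the kinase that shuts pyruvate dehydrogenase, 0.19 (-0.05 to 0.43). Neither passed (limma adjusted p = 0.50 and 0.458).

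Both lactate transporters missed the threshold. Slc16a3 encodes MCT4, the exporter of highly glycolytic cells, and had a log2 fold change of 0.19 (0.02 to 0.37, limma adjusted p = 0.267). Slc16a1, which encodes MCT1, had 0.14 (-0.00 to 0.28, limma adjusted p = 0.342). PBS mouse 661, at 10.48 for Slc16a3, lay above 4 of the 5 CpG1826 tumors, and PBS mouse 592, at 9.82 for Slc16a1, above CpG1826 mouse 50.

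**Figure D2:**
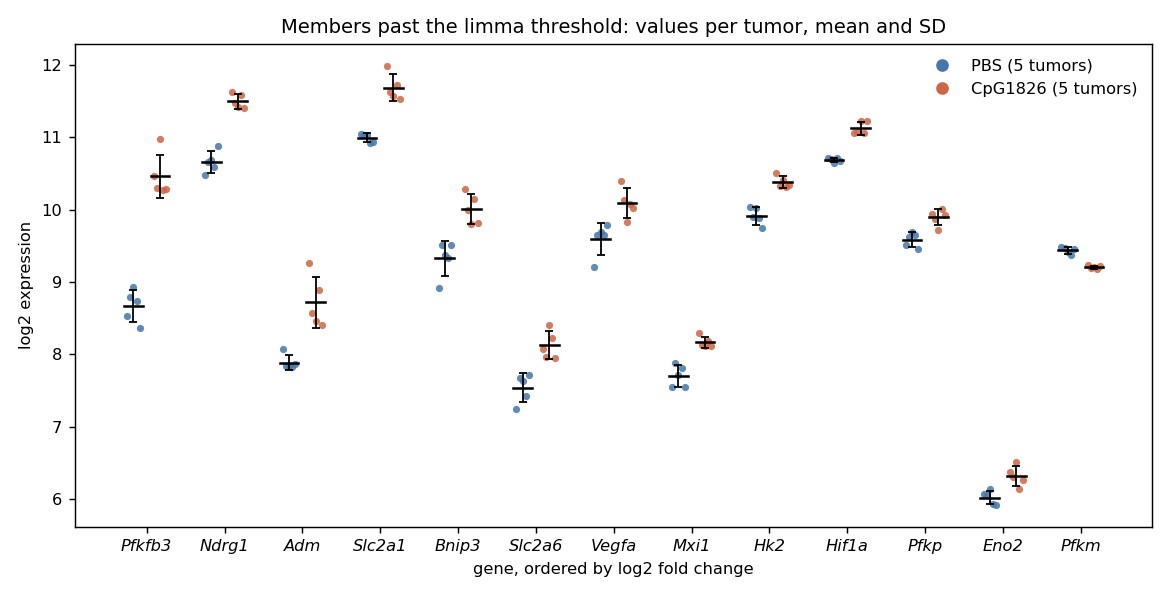
Log2 values (y axis) of the 13 members past the limma threshold, 1 point a tumor, with the mean and SD of each group as bars (5 PBS in blue, 5 CpG1826 in red), ordered by log2 fold change. The groups are farthest apart for Pfkfb3, and for Pfkm the CpG1826 tumors are the lower ones. Heights of different genes are not comparable, because probes differ in brightness.

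Of the HIF system, Hif1a itself was higher. Hif1a encodes the regulated subunit of HIF1 and read 10.72, 10.70, 10.65, 10.72 and 10.67 in PBS and 11.06, 11.07, 11.23, 11.06 and 11.22 in CpG1826 tumors. Within CpG1826, mice 183 and 595 were high and the other 3 lay together, all of them above the PBS range. The change was 1.35-fold (1.23 to 1.48, limma adjusted p = 0.000873). Egln1, the main prolyl hydroxylase that marks HIF1α, had a log2 fold change of 0.18 (-0.00 to 0.37, limma adjusted p = 0.330). Egln3, a hydroxylase whose gene is itself a strong HIF target, had 0.09 (-0.11 to 0.28, limma adjusted p = 0.717). CpG1826 mouse 183, the tumor with the highest Hif1a value, had the lowest Egln3 value of all 10, at 9.11. CpG1826 mouse 595, nearly as high for Hif1a, read 9.46 for Egln3.

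Of the 13 HIF targets, 5 were higher and 0 lower, with a median log2 fold change of 0.31. Ndrg1, a stress-responsive gene used as a marker of hypoxia in tissue, read 10.48, 10.67, 10.69, 10.58 and 10.88 in PBS and 11.63, 11.47, 11.42, 11.58 and 11.40 in CpG1826 tumors. It was higher in all 5 CpG1826 tumors than in any PBS tumor, by 1.79-fold on average (1.59 to 2.03, limma adjusted p = 4.46e-05). Ndrg1 is also known to be abundant in differentiating epidermis, and the keratinocyte markers of these tumors are given above. The part of keratinocytes in the values of Ndrg1 or of any other member was not tested. Adm encodes adrenomedullin, a vasodilator peptide, and read 8.07, 7.84, 7.83, 7.83 and 7.87 in PBS and 9.26, 8.57, 8.46, 8.89 and 8.41 in CpG1826 tumors. The CpG1826 tumors spread more widely than the PBS tumors, with SDs of 0.35 and 0.10, and mouse 50 was the highest. It was 1.78-fold higher (1.45 to 2.19, limma adjusted p = 0.00289).

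Bnip3, a mitochondrial protein that starts mitophagy, read 8.92, 9.51, 9.38, 9.33 and 9.51 in PBS and 10.28, 9.99, 9.80, 10.15 and 9.82 in CpG1826 tumors. PBS mouse 26 was the lowest of all, and the highest PBS tumor stayed below the lowest CpG1826 tumor. The change was 1.60-fold (1.33 to 1.93, limma adjusted p = 0.00540), and a second probe of the gene gave a log2 fold change of 0.53 beside 0.68 for the first. Whether the first probe, chosen by its level, also reads a near-identical copy of Bnip3 was not tested, and both probes passed (limma over all probes, adjusted p = 0.00560 and 0.00153). Its relative Bnip3l, also called Nix, had 0.20 (-0.00 to 0.41, limma adjusted p = 0.324), and 0.21 on its other probe. Mxi1, an antagonist of MYC, read 7.54, 7.87, 7.71, 7.81 and 7.55 in PBS and 8.30, 8.13, 8.12, 8.19 and 8.11 in CpG1826 tumors. Its CpG1826 values lay together, apart from mouse 50 above them, and the change was 1.39-fold (1.23 to 1.56, limma adjusted p = 0.00303).

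Vegfa, the main growth factor of blood vessels, read 9.21, 9.66, 9.69, 9.64 and 9.78 in PBS and 10.39, 10.13, 9.84, 10.08 and 10.03 in CpG1826 tumors. The highest PBS tumor, mouse 661, and the lowest CpG1826 tumor, mouse 183, lay close together. The change was 1.41-fold (1.18 to 1.68, limma adjusted p = 0.0270), but it did not pass with PBS mouse 29, CpG1826 mouse 50 or CpG1826 mouse 58 left out (adjusted p up to 0.0639). Endothelial markers had a mean log2 level from 7.22 to 7.39 in PBS and from 7.13 to 7.47 in CpG1826 tumors, with 1 of 7, Tek, lower and 0 higher.

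The other 8 HIF targets did not pass. Kdm3a, a histone demethylase that hypoxia induces, came nearest, with a log2 fold change of 0.31 (0.11 to 0.50, limma adjusted p = 0.0774). Its tumors read 9.39, 9.54, 9.33, 9.49 and 9.48 in PBS and 10.05, 9.79, 9.69, 9.60 and 9.62 in CpG1826, with no overlap. Kdm3a passed with a trended and robust prior (adjusted p = 0.0358) and with genes below the median level left out (0.0356). Ddit4, an inhibitor of mTORC1, had 0.31 (0.09 to 0.53, limma adjusted p = 0.123). The collagen prolyl hydroxylase subunits P4ha1 and P4ha2 had 0.22 (0.04 to 0.40) and 0.21 (-0.07 to 0.49). P4ha2 read 9.52, 9.47, 8.78, 9.64 and 9.32 in CpG1826 tumors, mouse 183 lying below every PBS tumor, and without that mouse it passed at a log2 fold change of 0.35 (limma adjusted p = 0.0267). Car9, the carbonic anhydrase used as a marker of tumor hypoxia, had 0.13 (-0.12 to 0.38), and Ankrd37, a small ankyrin repeat protein, -0.12 (-0.36 to 0.12). Higd1a, a mitochondrial protein, had 0.20 (-0.08 to 0.49), and -0.02 on its other probe. Whether the chosen probe of Higd1a also reads a near-identical copy of the gene was not tested.

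The contrast between the chain of enzymes and the other members was one of size and of counts. Among the enzymes 3 of 13 were higher (23.1%) and 1 lower, with a median log2 fold change of 0.14, and among the other members 9 of 24 were higher (37.5%) and 0 lower, with a median of 0.21. The mean log2 level of the 13 enzymes ran from 10.18 to 10.29 in PBS and from 10.26 to 10.42 in CpG1826 tumors, with CpG1826 mouse 183 inside the PBS range. That of the 24 others ran from 8.75 to 8.89 and from 9.09 to 9.37, with no overlap. Of these 24 genes, 10 had no overlap singly (41.7%, against 4.35% of all genes), so the gap between their means is no separate evidence. The mean log2 fold changes of these 2 groups of genes were 0.12 and 0.38, and Pfkfb3, at 1.79, raises the second mean. The medians differed by 0.07, and by 0.14 without CpG1826 mouse 183. The difference between the 2 gene groups was not tested, since the members were chosen with results known. The enzymes were also brighter on average than the others, and the part of level in this contrast was not tested. The count of higher enzymes rests on 2 calls near the threshold: without PBS mouse 26, 29 or 661, or without CpG1826 mouse 50, 58 or 595, Hk2 was the only one.

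Of the 24 members that did not pass, 20 had a log2 fold change above 0, the largest being 0.31. Over all genes that did not pass, 7672 of 19008 had one above 0. These genes were read in the same 10 tumors, so the counts are no sums of independent measurements.

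**Figure D3:**
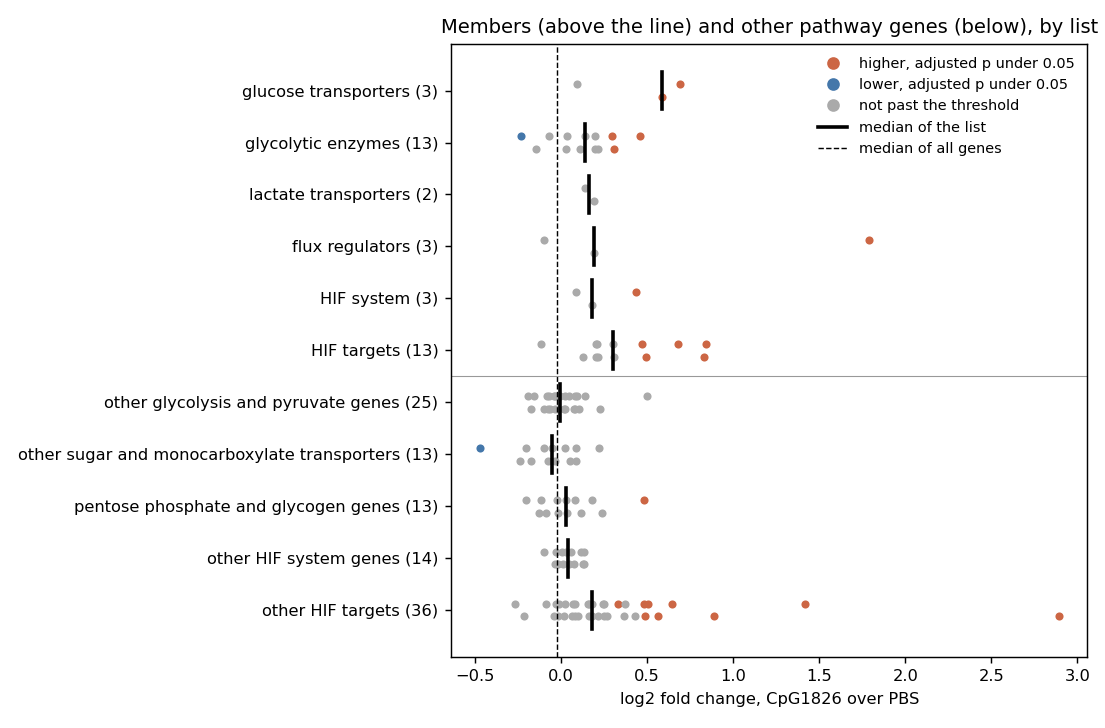
Log2 fold changes, CpG1826 over PBS (x axis), of the members by role (above the grey line) and of 5 lists of other genes of the same pathways (below it), 1 point a gene, with the number of measured genes after each name. Black bars are list medians and the dashed line is the median of all genes, -0.02. HIF targets of both kinds reach farther to the right than the enzymes or the other glycolysis genes do.

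Of 99 other measured genes of the same pathways, with Gys1 and Gbe1 standing in 2 lists each, 9 were higher and 1 lower (9 of 99 against 3.56% of all genes). Their lists, too, were chosen with earlier results known, and this share was not tested. A list of other genes of glycolysis, its side branches and reversal, and the handling of pyruvate in mitochondria held 0 calls of 25. At an unadjusted p under 0.05 (limma), 2 of them were higher and 3 lower, which is near the shares over all genes given above. Pkm, pyruvate kinase, had a log2 fold change of -0.00 (SE 0.07) at levels of 12.12 in PBS and 12.11 in CpG1826 tumors. Pgm1, phosphoglucomutase, had 0.14 (limma adjusted p = 0.343). Among 13 other sugar and monocarboxylate transporters, Slc16a7, which encodes the pyruvate carrier MCT2, was lower by 0.47 on the log2 scale (limma adjusted p = 0.0323), but not when PBS mouse 26, 29, 482 or 592 or CpG1826 mouse 50 or 183 was left out. Of 13 genes of the pentose phosphate pathway and glycogen metabolism, 1 was higher. This was Gys1, the glycogen synthase of muscle and most tissues, at 8.84, 8.80, 8.84, 8.81 and 8.88 in PBS and 9.34, 9.34, 9.34, 9.28 and 9.27 in CpG1826 tumors. Its groups were narrow and far apart, and it was 1.4-fold higher (1.29 to 1.52, limma adjusted p = 0.000144).

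The other parts of the HIF system did not pass. Of 14 genes, with log2 fold changes from -0.10 to 0.14, 0 were called, and at an unadjusted p under 0.05 (limma) 1 was higher, near the share over all genes, and 0 lower. Cited2, which competes with HIF1α for its coactivators, had a log2 fold change of 0.14 (limma adjusted p = 0.444), and Elob, a subunit of the VHL ubiquitin ligase, 0.07 (limma adjusted p = 0.789). Of 36 other known HIF targets, 9 were higher and 0 lower, with a median log2 fold change of 0.18. Nos2, the inducible nitric oxide synthase of activated myeloid cells, read 8.34, 8.40, 8.39, 8.13 and 7.23 in PBS and 11.12, 10.62, 11.26, 11.07 and 10.87 in CpG1826 tumors. Edn1, the vasoconstrictor endothelin-1, was 2.68-fold higher (2.07 to 3.45, limma adjusted p = 0.000215). Pgf, placental growth factor, was 1.86-fold higher (1.57 to 2.19, limma adjusted p = 0.000274). Ero1a, an oxidase of the endoplasmic reticulum, was 1.56-fold higher (1.31 to 1.86, limma adjusted p = 0.00532). The other 5 were Hilpda, Ak4, Hmox1, Plod1 and Gys1. Several of these genes, Nos2, Edn1 and Hmox1 among them, are known to respond to inflammatory signals or oxidants as well as to HIF, and the data do not tell these apart. The calls of Plod1, Hmox1 and Hilpda were lost in 3, 8 and 7 of the 10 fits that left out a mouse.

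**Figure D4:**
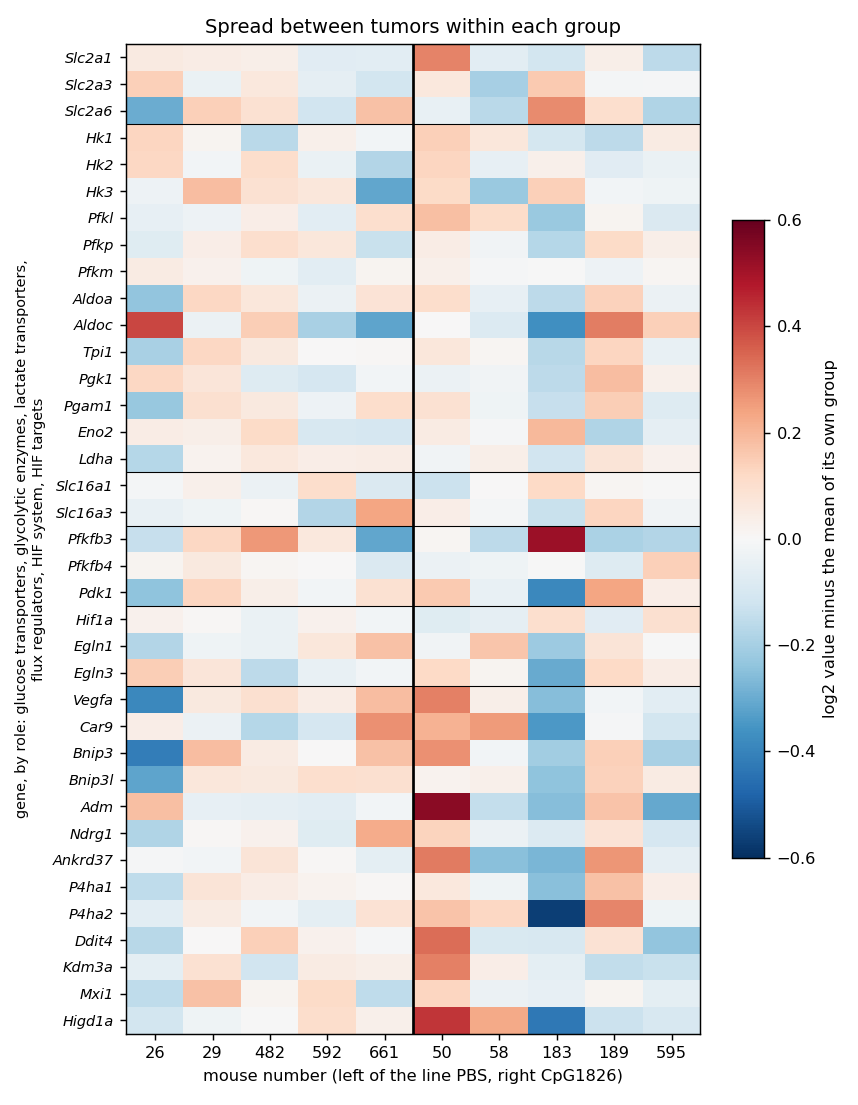
Log2 value of each member (rows, by role) in each tumor (columns, PBS mice left of the line, CpG1826 mice right of it), minus the mean of its own group, so that differences between the groups are removed. Blue cells are below and red cells above the group mean. Mouse 183 is blue for most HIF targets and most enzymes and red for Pfkfb3, Slc2a6 and Hif1a.

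Within each group, the members did not vary as 1 block. CpG1826 mouse 183 had the lowest value of its group for 20 of 37 members, among them 8 of 13 HIF targets and 8 of 13 enzymes, and the highest for 7. The 7 were Pfkfb3, Slc2a6, Slc2a3, Hif1a, Hk3, Eno2 and Slc16a1. CpG1826 mouse 50 was highest of its group for 15 members, 9 of them HIF targets, and mouse 189 for 12, 7 of them enzymes. In PBS, mouse 26 was lowest for 16 members, 9 of them HIF targets, and highest for 10, Adm and Slc2a1 among them. CpG1826 mouse 183 also had the lowest keratinocyte mean of its group, 6.71, and the highest muscle mean, 7.51. Mouse 189 had the highest keratinocyte mean, 7.38, and the lowest muscle mean, 6.65. Mouse 50 had the highest neutrophil mean, 6.23, with mouse 183 next at 6.12. Mouse 50 was also lowest of its group in other lists, among them the fibroblast (10.47) and T cell (6.70) markers. Whether these cell types bear on the members' values was not tested.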

How the data were processed

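Total RNA of 10 tumors, 5 per group, was labelled with a whole-transcript kit and hybridised to Affymetrix arrays, per the labels' protocols. The authors deposited 1 log2 value per probe and array. That the base is 2 was inferred from their range, 2.03 to 14.70, and near-equal array medians show that arrays had been normalized to each other. Of software, the submitters' processing notes list R 2.7.1 and limma, but the steps from scans to values (background, summarization, normalization) are not given in the sources read here. Such normalization can mask a change common to most genes.

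Of 35512 probes, 21789 carried exactly 1 symbol in the array's annotation, 1621 several and 12102 none, and 21698 matched a RefSeq gene number (GRCm38.p6) with 0 symbols changed. Each of 19938 genes, 999 of them with several probes, was tested in R 4.3.3 with limma 3.58.1 (lmFit, then eBayes, two-sided), with Benjamini-Hochberg adjustment over all genes. Intervals are 95% confidence intervals. Mouse numbers are not shared between groups, and no block was fitted. In a test on simulated arrays of this comparison (19938 genes), 79 of 100 genes raised by 0.5 on the log2 scale were recovered. Of 100 genes raised by 1, 99 were recovered, and 9 of all 187 calls were false. The noise was drawn independently for each gene. Changes below 0.5, the size seen for most members, and lower genes were not simulated.

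The members and lists were chosen with earlier results of these data known, so lists are described by counts and medians with no test. All members are accounted for, and of each other pathway list up to 4 called genes with the largest change are named, or the 2 with the highest level where none was called. The alternatives tried were array weights, quantile normalization on top of the deposited values, centring on the median, averaging the probes of a gene, a robust prior with a trend, filters on level at the lower quartile and at the median, stricter thresholds (an adjusted p under 0.01, and treat from limma at a minimum of 1.2-fold), and each mouse left out once. Figures were drawn with matplotlib 3.10.9.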

Additional observations from a re-analysis of the deposited data

Results flagged for a closer look

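Among 74 sets of 5 tumors, 1 set for each of the 37 members in each group, 6 held a tumor that stood apart from the other 4 by Dixon's test, where chance gives about 1 in 20. PBS mouse 26 accounts for 4 of them. It was the lowest for Ldha, at 12.28 against 12.47 to 12.51 in the other PBS tumors, for Vegfa, at 9.21 against 9.64 to 9.78, and for Bnip3l, at 9.83 against 10.21 to 10.25. For Adm it was the highest, at 8.07 against 7.83 to 7.87. CpG1826 mouse 183 accounts for the other 2, as the highest for Pfkfb3, at 10.97 against 10.27 to 10.47, and the lowest for Egln3, at 9.11 against 9.43 to 9.54.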

How the results depend on the processing

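Of the results for single members under the alternatives, 651 kept their direction and their side of the threshold, 42 lost the call, 3 gained one and 5 changed direction. The count of higher members, 12, lay between 9 and 12 when 1 mouse was left out, was 9 at an adjusted p under 0.01 and fell to 3 with the treat test, which asks for more than a 1.2-fold change. The 1 lower member gave 0 to 1 when a mouse was left out, and 0 at an adjusted p under 0.01 and with the treat test. The 9 higher genes of the other pathway lists became 5 at an adjusted p under 0.01 and 3 with the treat test. Their 1 lower gene, Slc16a7, gave 0 to 1 when a mouse was left out, and 0 after a further quantile normalization, with genes below the median level left out, at an adjusted p under 0.01 and with the treat test. The settings at 0.01 and with treat are stricter by construction, the filter at the median level leaves Slc16a7 out, and elsewhere the cause was not tested. In the limma fit 1 member was lower at an unadjusted p under 0.05. The difference between the medians of the other members and the enzymes, 0.07, lay between 0.063 and 0.14 when a mouse was left out. The direction changed for 3 genes that did not pass: Hk1, to 0.082 as the mean of its probes, Hk3, to -0.019 with array weights and between -0.048 and 0.085 without a mouse, and Pgk1, between -0.0077 and 0.078 without a mouse. Calls were also lost for Pfkp with array weights (adjusted p = 0.050) and for Eno2 with the trended and robust prior (0.0651). Over all genes, 220 lower calls became 440 after the quantile normalization, with 769 higher, and 188 with 732 higher after median centring. No paired analysis was possible because no mouse number occurs in both groups.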
